A study of Mus musculus with 8 samples.

Results

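The genes described here encode the proteins of the cytosolic ribosome. They were chosen by name and class alone, as the protein-coding rows of the deposited table whose symbol begins with Rpl or Rps (or Rplp) followed by a number, without the S6 kinases and without pseudogene rows. This rule gave 84 of the 22075 genes in the table, of which 43 encode core proteins of the large subunit, 30 core proteins of the small subunit and 3 the proteins of the ribosomal stalk, while 8 are paralogues or other genes that share the name. RNA was measured in 8 libraries of group 2 innate lymphoid cells (ILC2s) in culture, which lack antigen receptors and are known for type 2 cytokines, from lungs of C57BL/6 mice that had received papain for a short time. The cells carried floxed Stat3 alleles either without a Cre (WT) or with Vav-iCre (STAT3-KO), a recombinase that the Vav promoter drives in all blood cells, so that loss of Stat3 and presence of the recombinase cannot be told apart. All cells grew for about 5 days in 10 ng/ml interleukin 2 (IL-2), and the treated groups then received 10 ng/ml interleukin 33 (IL-33) for 2 days, whereas the medium of the controls in those days is not described. Each of the 4 groups of genotype by treatment held 2 libraries, and nothing in the labels says that these came from separate mice or cultures, so that p values measure the spread between libraries alone, which may be technical.

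A ribosome holds 1 copy of nearly every ribosomal protein, assembled with ribosomal RNA in the nucleolus, and the small subunit reads the mRNA while the large subunit joins amino acids. These mRNAs begin with a C followed by a run of pyrimidines, the terminal oligopyrimidine (TOP) motif, through which the kinase mTORC1 controls their translation, and MYC and RNA polymerase I are known regulators of ribosome production. Lymphocytes that leave rest for growth and division make many new ribosomes, and IL-33 is an alarmin that activates ILC2s.

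The Rps27 genes are shown first, because their members moved in opposite directions and because they show how alike these genes are. The first 60 bases of their coding sequences, read from GENCODE M21 transcripts on GRCm38, are given 5′ to 3′, with the bases in which a gene differs from Rps27 in capitals.
Rps27: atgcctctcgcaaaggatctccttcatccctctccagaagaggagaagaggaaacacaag
Rps27rt: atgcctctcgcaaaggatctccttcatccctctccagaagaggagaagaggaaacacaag
Rps27l: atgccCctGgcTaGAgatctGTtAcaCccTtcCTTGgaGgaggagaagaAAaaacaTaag
Over the whole coding sequence of 252 bases, Rps27rt, an intronless copy, differed from Rps27 at 0 positions, so that reads from the coding parts of these genes cannot be told apart. Rps27l, a paralogue known as a target of p53, differed at 60 positions (76.2% identity). Its reads can therefore be told from those of Rps27, and the first 60 bases alone hold 18 of the differences.

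The stretch around the annotated start of transcription is shown for the Rps27 genes and for Rps2, Rps26 and Rps6, described below, since members that moved together, or apart, can be compared there. Each run holds 85 bases before the start and 15 bases from it on, from RefSeq on GRCm38.p6, 5′ to 3′ on the transcribed strand. The runs were searched on both strands for the pyrimidine motif CTTTCC, marked in capitals, and the ETS motif CCGGAAG.
Rps27 (chr3:90213634-90213733, minus strand): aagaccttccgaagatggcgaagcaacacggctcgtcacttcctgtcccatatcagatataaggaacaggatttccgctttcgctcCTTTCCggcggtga
Rps27rt (chr9:114982725-114982824, minus strand): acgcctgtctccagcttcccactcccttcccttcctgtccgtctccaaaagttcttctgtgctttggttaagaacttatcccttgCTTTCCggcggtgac
Rps27l (chr9:66946001-66946100, plus strand): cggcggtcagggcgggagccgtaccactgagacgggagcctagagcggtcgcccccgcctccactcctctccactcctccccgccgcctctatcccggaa
Rps2 (chr17:24719978-24720077, plus strand): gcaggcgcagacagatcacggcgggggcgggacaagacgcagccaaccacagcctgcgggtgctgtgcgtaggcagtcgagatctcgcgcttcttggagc
Rps26 (chr10:128626492-128626591, minus strand): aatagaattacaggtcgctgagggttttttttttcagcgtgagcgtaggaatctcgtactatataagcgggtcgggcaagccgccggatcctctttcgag
Rps6 (chr4:86857353-86857452, minus strand): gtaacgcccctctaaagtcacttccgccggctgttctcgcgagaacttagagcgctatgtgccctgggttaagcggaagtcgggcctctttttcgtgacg
Rps27 and Rps27rt, which lie on different chromosomes, both hold CTTTCC next to the annotated start, whereas these letters are not in the runs of Rps27l, Rps2, Rps26 and Rps6. CCGGAAG is in none of the 6 runs. A run of Rpl15, searched in the same way and not printed, held both motifs, and the run at another annotated start of Rps27l held neither. Of the 84 members, 64 had at least 1 entry among the RefSeq promoters, which are 300 bases long and end after the start. CTTTCC stood on either strand in 34 of them (53.1%) against 29.3% of the 27025 genes in that table, and CCGGAAG in 25 (39.1%) against 9.93%. The E-box CACGTG, the motif that MYC binds, stood in 6 (9.38%) against 8.09%. A C followed by 4 pyrimidines exactly at the annotated start stood in 14 (21.9%) against 3.01%. These counts describe letters in a window and not binding.

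The level of a member differed far more between genes than between groups. Rpl4, a protein of the wall of the exit tunnel, had the highest mean over all libraries at 2796 FPKM (fragments per kilobase of exon at equal depth, a level per length), followed by Rplp0, the base of the stalk, at 2530.5 FPKM and the small-subunit gene Rps3a1 at 2082 FPKM. In all, 5 members averaged at least 1000 FPKM, 24 from 100 to 1000, 38 from 10 to 100, 12 from 1 to 10 and 5 under 1 FPKM, with a median of 41.5 FPKM. Among the 76 core members, whose products ribosomes need in nearly equal numbers, 13 were under 10 FPKM, and the highest mean was 5835 times the lowest. The values step with the merged length of all annotated exons of a gene. That length was 6270 bases against 640 for the main transcript in Rps15a, and 977 against 977 in Rps3a1. Levels of different genes therefore also differ through this length, to an extent that was not tested.

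Members at the bottom of the range included genes that every ribosome needs. Rpl24, of the large subunit, measured 0.463 and 0.368 FPKM in WT control, 0.577 and 0.787 in STAT3-KO control, 0.488 and 0.179 in WT with IL-33 and 0.536 and 0.437 in STAT3-KO with IL-33. Rpl13a, also of the large subunit, ranged from 0.677 to 1.28 FPKM. The paralogues Rpl3l, known from muscle, and Rpl39l, known from testis, were the lowest of all: Rpl3l was listed at 0 in 7 of the 8 libraries (WT control 1 held 0.508 FPKM), and Rpl39l did not exceed 0.443 FPKM. Over 1 kb, 3 reads were worth 0.151 to 0.189 FPKM, a floor for counting error only. Rpl24, Rpl36al, Rpl39l and Rpl3l had no 2 libraries at 1 FPKM or more and were not tested, which left 80 members in the comparisons.

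**Figure D1:**
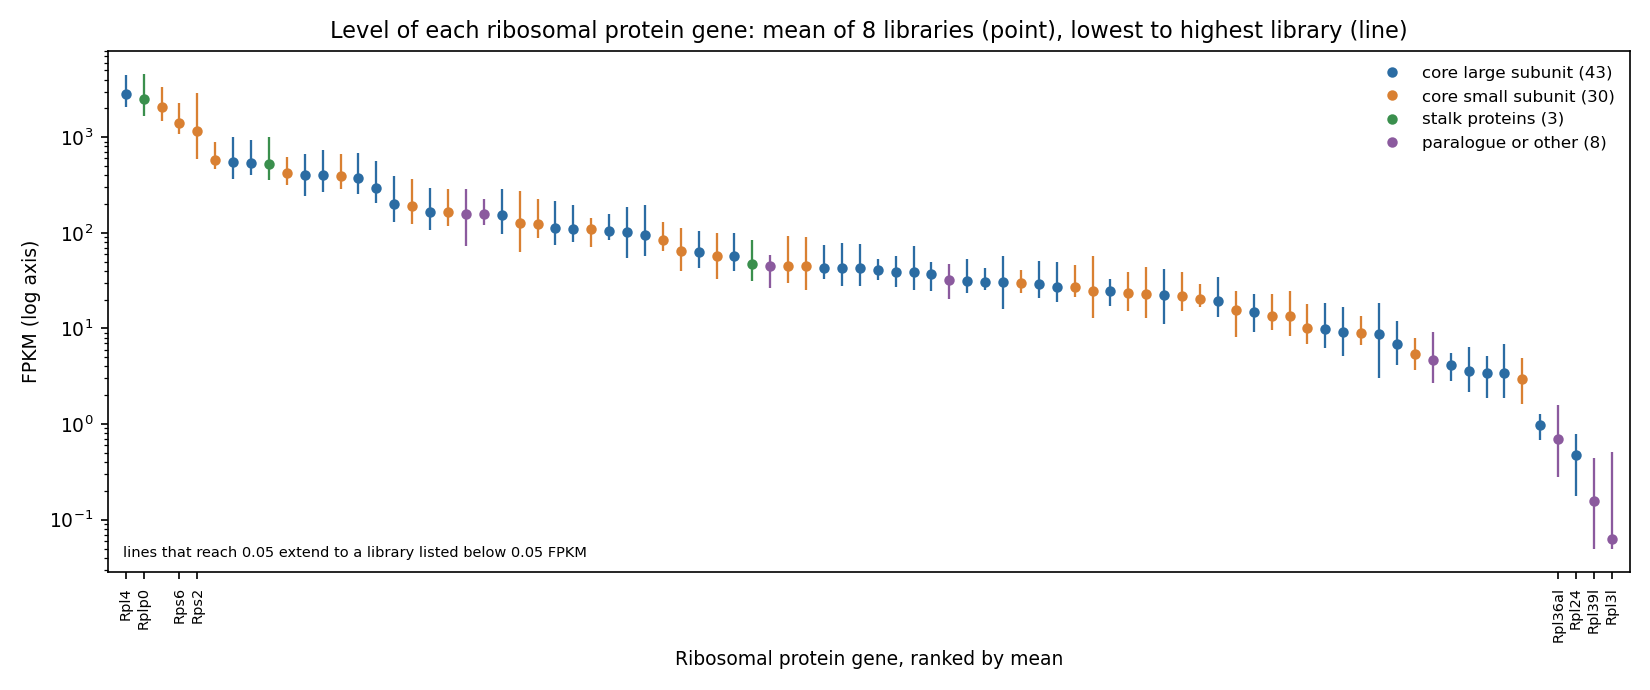
Mean FPKM of each of the 84 genes over 8 libraries (points, log axis) with the lowest and highest library (lines), ranked and coloured by class. Rpl4 and Rplp0 lead at 2796 and 2530.5 FPKM, while Rpl24 and the paralogues Rpl36al, Rpl39l and Rpl3l lie under 1 FPKM.

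Ribosomal protein genes have many near-identical copies in the genome, and reads from such copies cannot be told apart. For each member, the windows of 50 bases along its main GENCODE M21 transcript were searched in all other annotated transcripts of GRCm38. In the median member, 56% of the windows also stood in another gene, 48 of the 84 shared at least 50% of them, and 4 shared none. Spearman's rho between this share and the mean log2 level was 0.06 over the 80 tested members, which all come from the same libraries. Of the low members named above, Rpl24 shared 81.7% of its windows and Rpl13a 57.4%, while Rpl3l and Rpl39l shared 0%. How the counting placed such reads is not given in the sources used here, and its part in the low levels was not tested.

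Stat3, the gene deleted in STAT3-KO cells, measured 41.7 and 50.7 FPKM in WT control and 49.0 and 55.3 in WT with IL-33, above the 15.3 and 16.0 of STAT3-KO control and the 8.03 and 9.69 of STAT3-KO with IL-33. All 13 genes of the ILC2 marker list averaged at least 1 FPKM, and of 8 T cell markers 2 did. The ILC2 markers summed to 3644 to 3855 FPKM in the control libraries, 10564 and 11343 in WT with IL-33 and 4201 and 3841 in STAT3-KO with IL-33, so that WT with IL-33 stood above the other groups, and the part of this in the results was not tested. The list holds the secreted products Il5, Il13 and Areg beside genes of cell identity, so the sum does not measure the share of ILC2s. Summed over its genes, the T cell list held 6.02 to 11.9 FPKM. The list of natural killer cells and group 1 innate lymphoid cells held 10.5 and 8.78 FPKM in WT control and 29.3 and 26.7 in STAT3-KO control. With IL-33 it held 2.61 and 2.51 in WT and 4.44 and 4.98 in STAT3-KO. The red blood cell list held 10.6 to 19.3 FPKM in the control libraries and 3.10 to 4.84 with IL-33. The part of these differences in the results was not tested. Lists of further cell types were summed and are not printed. Of 5 B cell markers 2 could be used, which summed to 3.26 to 8.15 FPKM in the control libraries and 13.1 to 21.9 with IL-33, and the part of this difference in the results was not tested. Of the 5 mast cell and basophil markers 2 could be used, Cpa3 and Mcpt8, which summed to 299 to 326 FPKM in WT control, 111 to 140.4 in STAT3-KO control, 127 to 155 in WT with IL-33 and 7.49 to 7.77 in STAT3-KO with IL-33. Depth was between 15843176 and 19902363 reads per library, recovered from the steps of the values.

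Ribosomal protein genes held a larger part of the summed FPKM in STAT3-KO cells with IL-33 than in the other 3 groups. They held 4.43% and 4.20% of all FPKM in WT control, 4.47% and 4.08% in STAT3-KO control, 4.93% and 4.43% in WT with IL-33, and 8.43% and 6.98% in STAT3-KO with IL-33. Both STAT3-KO libraries with IL-33 lay above the other 6, which overlapped among themselves. The classes shared this order: core large-subunit genes held 1.62% to 1.98% in the other 6 libraries and 3.27% and 2.86% in STAT3-KO with IL-33, core small-subunit genes 1.68% to 1.96% against 3.48% and 2.61%, and the stalk genes 0.649% to 0.859% against 1.51% and 1.36%. The FPKM of a whole library summed to 321367 to 336816 in the other 6 libraries and to 370739.9 and 349029.5 in STAT3-KO with IL-33. As a share of protein-coding FPKM without mitochondrially encoded genes, the members held 4.67% to 5.35% in the other 6 and 9.45% and 7.80% in STAT3-KO with IL-33. The shares are given as a description, with no test. In bulk RNA, fewer cells of a type and less RNA per cell cannot be told apart.

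**Figure D2:**
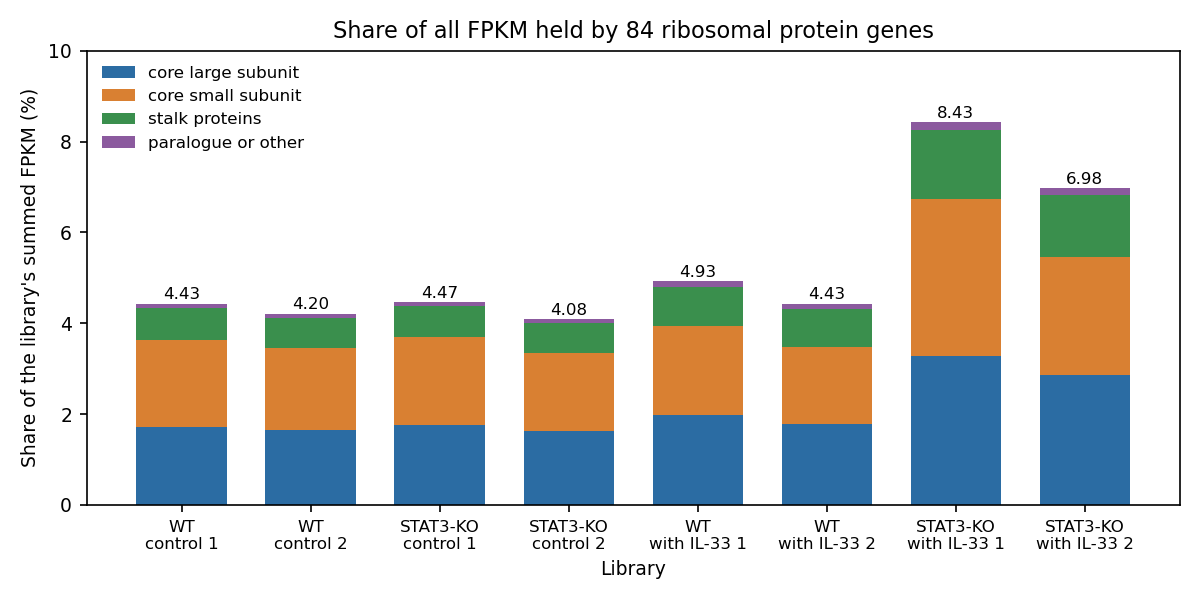
Share of each library's summed FPKM held by the 84 genes, in percent, stacked by class, with the total above each bar. The 2 libraries of STAT3-KO with IL-33 reach 8.43% and 6.98%, and the other 6 lie between 4.08% and 4.93%.

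Within each group most members differed between replicates in 1 direction, which was not so over the whole table. In WT control, where 30 of 80 members were higher in library 1, this direction was the opposite of that in the other groups. Among the 80 tested members, library 1 exceeded library 2 by a median of 0.46 on the log2(FPKM + 1) scale in STAT3-KO with IL-33 (77 of 80 members higher in library 1), by 0.28 in STAT3-KO control and by 0.25 in WT with IL-33, and in WT control the median was -0.14. Over all tested genes the same medians lay between -0.03 and 0.00. Measured from the WT control mean, the median member stood at 1.14 and 0.72 in the libraries of STAT3-KO with IL-33, at 0.31 and 0.09 in WT with IL-33, and at 0.15 and -0.12 in STAT3-KO control. In 58 of the 84 members (69.0%) both STAT3-KO libraries with IL-33 lay above all other 6, as they did in 18.2% of the 11877 tested genes. The share of members includes the 4 that were not tested.

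**Figure D3:**
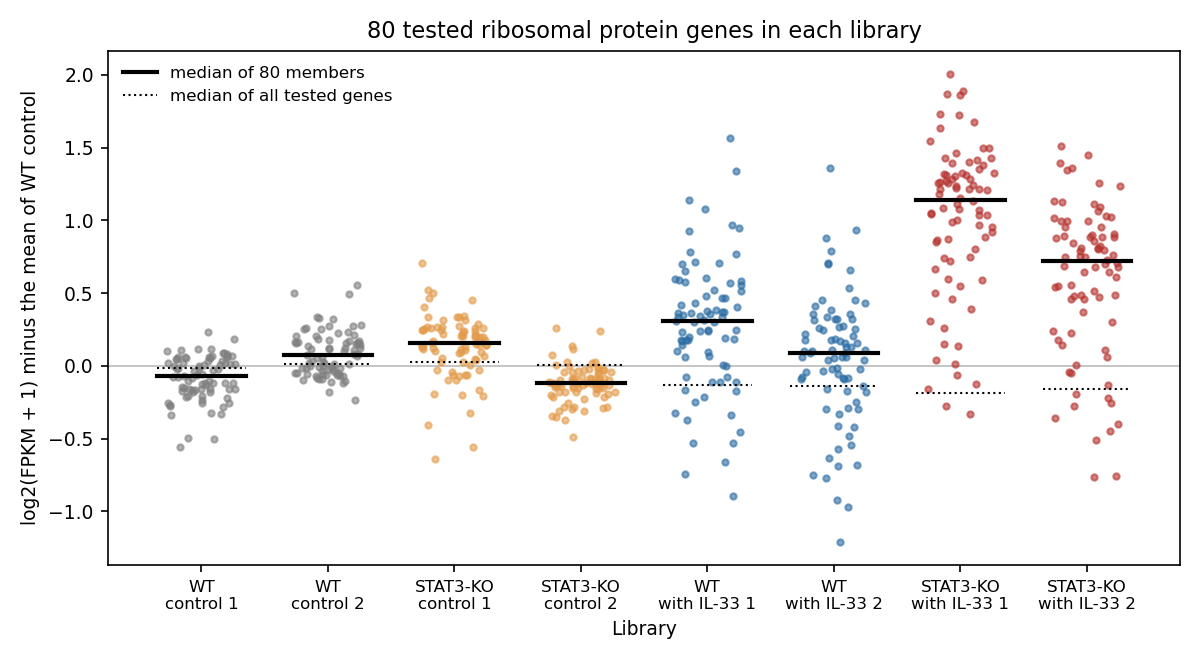
Each point is 1 of 80 tested members in 1 library, as log2(FPKM + 1) minus its mean in WT control. Thick lines mark the members' median and dotted lines the median of all tested genes, and the members' median stands at 1.14 and 0.72 in STAT3-KO with IL-33 against -0.19 and -0.16 for all genes.

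The first comparison asks how IL-33 changed these genes in WT cells. It raised 10 of the 80 members and lowered 5, while 65 did not pass the test. The median member differed by 0.20 on the log2(FPKM + 1) scale, against -0.14 over all tested genes, of which 14.5% were called higher and 21.6% lower. The share called higher among the members (12.5%) was near this background, and the share called lower (6.25%) was under it. The rises included Rps27l, Rps26, Rps25, Rplp0, Rpl5, Rpl10, Rpl35a, Rpl36a and Rpl41, and the falls included Rps7, Rps27, Rps27rt and Rpl8.

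Rps27l rose most. It measured 71.9 and 85.01 FPKM in WT control, 90.3 and 72.3 in STAT3-KO control, 233 and 202 in WT with IL-33 and 288 and 215 in STAT3-KO with IL-33, so that all 4 libraries with IL-33 lay above all 4 without. The difference in WT was 1.46 ± 0.17 (adjusted p = 0.000389), and here and below a change is given on the log2(FPKM + 1) scale as the difference ± its standard error (SE). Rps26, which lies at the mRNA exit channel of the small subunit, measured 64.8 and 71.4 FPKM in WT control and 145 and 126 with IL-33, a rise of 0.98 ± 0.19 (adjusted p = 0.00447). Rps25, a small-subunit protein used by viral internal entry sites, rose from 35.0 and 38.4 to 70.8 and 70.9 FPKM (0.93 ± 0.18, adjusted p = 0.00434). In both genes the libraries with IL-33 lay apart from the controls.

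The falls in WT were of genes on both subunits. Rps7, a small-subunit protein known to bind the p53 regulator MDM2, went from 16.8 and 24.3 FPKM in WT control to 11.7 and 8.20 with IL-33 (-0.98 ± 0.26, adjusted p = 0.0182). Rps27rt fell from 46.5 and 59.2 to 32.8 and 26.3 FPKM (-0.82 ± 0.18, adjusted p = 0.00859), and Rps27 from 102 and 129 to 79.5 and 71.2 FPKM (-0.61 ± 0.20, adjusted p = 0.0463). These 2 genes share their coding sequence and are not independent observations. Rpl8, a core protein near the peptidyl transferase centre, fell from 35.2 and 49.2 to 28.5 and 24.4 FPKM (-0.64 ± 0.16, adjusted p = 0.0167). In all 4 genes the WT libraries with IL-33 lay below those of WT control.

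The ratio of Rps27l to Rps27, which compares the paralogues within a library, was 0.703 and 0.658 in WT control and 0.629 and 0.691 in STAT3-KO control. With IL-33 it was 2.94 and 2.84 in WT and 2.08 and 2.19 in STAT3-KO. The order of the pair was thus the reverse in every library with IL-33, and the STAT3-KO ratios lay between those of WT with IL-33 and the controls. Other genes share 98.6% of the windows of Rps27 and 22.4% of those of Rps27l. How such reads were counted is not given, so which of the 2 is higher within a library is a description only. Rps27 in STAT3-KO cells measured 144 and 105 FPKM in control and 138 and 98.6 with IL-33, which overlap (-0.07 ± 0.20, adjusted p = 0.795). Rps27 (ENSMUSG00000090733) lies on GRCm38 chromosome 3, 90212522 to 90213651, Rps27rt (ENSMUSG00000050621) on GRCm38 chromosome 9, 114982366 to 114982739, and Rps27l (ENSMUSG00000036781) on GRCm38 chromosome 9, 66946086 to 66949516.

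**Figure D4:**
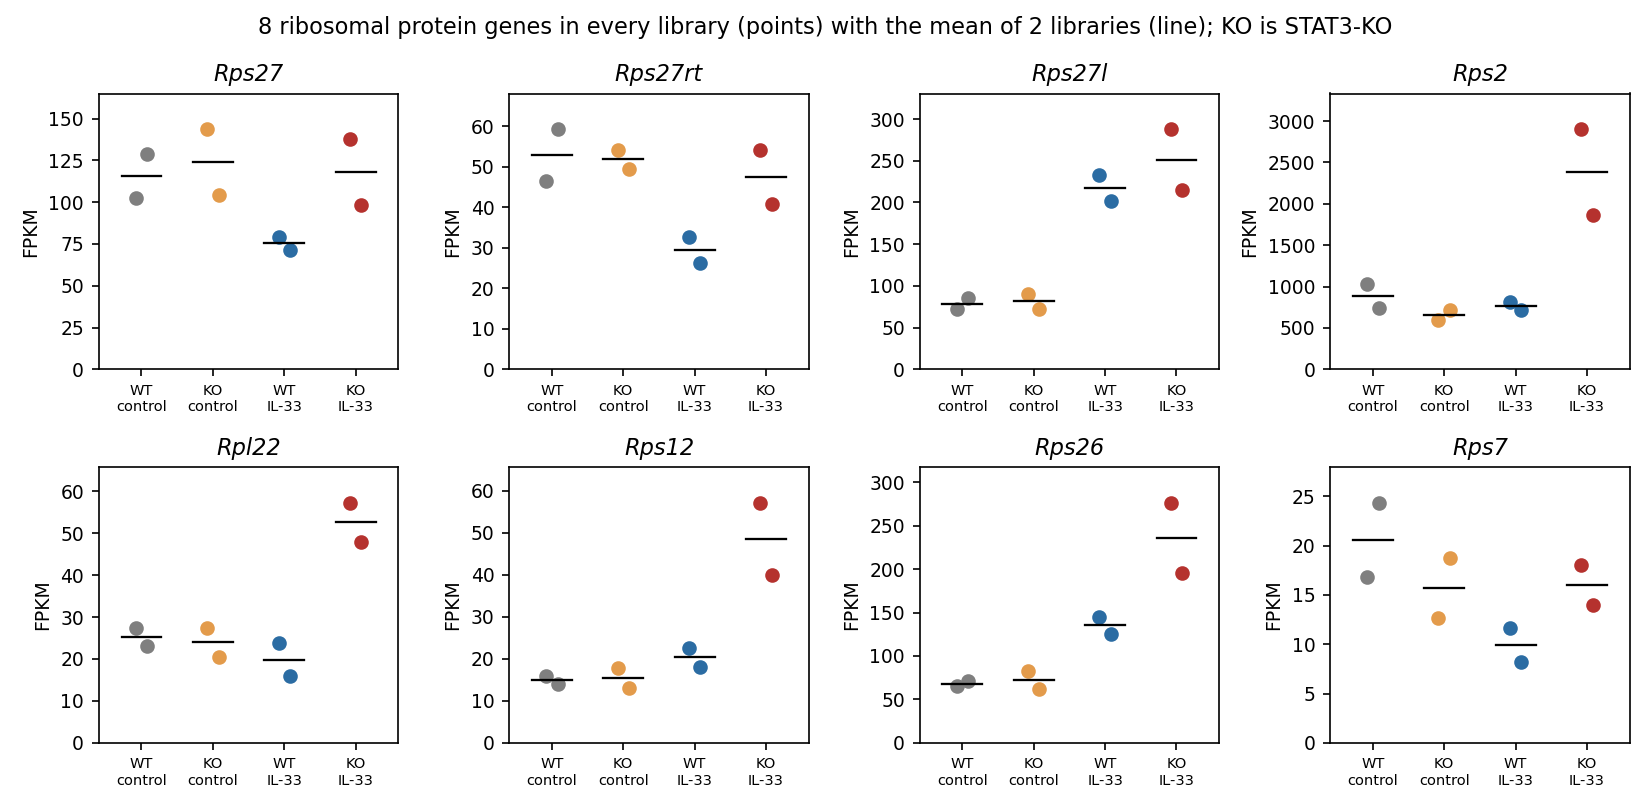
FPKM of 8 genes in every library (points) with the mean of the 2 libraries of a group (lines), each panel starting at 0. Rps27 and Rps27rt are lowest in WT with IL-33, Rps27l is high in all 4 libraries with IL-33, and Rps2, Rpl22 and Rps12 are high in STAT3-KO with IL-33.

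Among the other members called in WT, Rplp0 measured 1959 and 1666 FPKM in WT control and 2363 and 2314 with IL-33, a rise of 0.37 ± 0.10 (adjusted p = 0.0237). Rpl36a rose from 11.1 and 14.1 to 28.8 and 20.4 FPKM (0.90 ± 0.24, adjusted p = 0.0201), and Rpl10, which is joined to the large subunit last, from 420.3 and 389.9 to 596 and 553 FPKM (0.50 ± 0.17, adjusted p = 0.0498). Rps6, the substrate of the S6 kinases, measured 1225 and 1112 FPKM in WT control and 1331 and 1219 with IL-33 and did not pass (0.13 ± 0.15, adjusted p = 0.547). The next 3 genes were chosen for description after their values were seen. Rpl41, the shortest ribosomal protein, rose from 56.2 and 71.2 to 124 and 110.0 FPKM (0.88 ± 0.18, adjusted p = 0.00661), and Rpl5, a partner of the small ribosomal RNA of the large subunit, by 0.44 ± 0.15 (adjusted p = 0.0482). Rpl35a went from 5.46 and 7.32 to 11.6 and 9.62 FPKM. In each of these 3 genes the WT libraries with IL-33 lay apart from those of WT control. Of 17 alternative settings, 9 ended the call of Rpl10, 8 that of Rps27, 5 that of Rplp0, 3 that of each of Rpl36a, Rps7 and Rpl8, 1 that of Rps27rt, and 0 ended the calls of Rps27l, Rps26 and Rps25.

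The counts depend on single libraries: without library 1 of WT with IL-33 there were 4 rises and 3 falls, without library 2 of that group 0 falls, without library 1 of WT control 6 rises, without its library 2 only 1 fall, and without library 1 or 2 of STAT3-KO with IL-33 17 rises. Scaling by the median of ratios, under which the table's median gene stood at 0.00 in place of -0.14, gave 20 rises and 4 falls. The share of all FPKM from mitochondrially encoded genes was 3.33% and 2.31% in WT with IL-33 and between 5.55% and 7.13% in the other libraries, and its part in the result was not tested.

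The second comparison is the response of STAT3-KO cells. IL-33 raised 61 of the 80 members there and lowered 0 (0 lower at an unadjusted limma p under 0.05 as well), against 20.4% of all tested genes called higher and 30.6% called lower. The median member differed by 0.86 and the median gene of the table by -0.18. By class, 34 of 42 tested core large-subunit genes, 20 of 30 core small-subunit genes, all 3 stalk genes and 4 of 5 tested paralogues and other genes rose. All 10 members that rose in WT also rose in STAT3-KO, 51 members rose in STAT3-KO alone by these calls, and the 5 that fell in WT were not called. Members called higher ranged from 3.43 to 2796 FPKM in mean level and from 0.48 to 1.83 in log2 difference.

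Rps2, a small-subunit protein of the mRNA entry side, showed the largest rise. It measured 1029 and 743 FPKM in WT control, 593 and 718 in STAT3-KO control, 810.1 and 712 in WT with IL-33 and 2898 and 1861 in STAT3-KO with IL-33. Both STAT3-KO libraries with IL-33 lay above the other 6, which overlapped, and the difference from STAT3-KO control was 1.83 ± 0.22 (adjusted p = 0.000285). Rps2 (ENSMUSG00000044533) lies on GRCm38 chromosome 17, 24718116 to 24721929. Rps26 went from 82.2 and 62.2 to 276 and 196 FPKM (1.69 ± 0.19, adjusted p = 0.000174), and Rps27l from 90.3 and 72.3 to 288 and 215 FPKM (1.61 ± 0.17, adjusted p = 0.000137).

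The stalk genes, whose products recruit the elongation factors to the ribosome, rose together. Rplp0 measured 1725 and 1749.6 FPKM in STAT3-KO control and 4525 and 3941 with IL-33 (1.28 ± 0.10, adjusted p = 3.52e-05). Rplp1 went from 448 and 353 to 1002 and 734 FPKM (1.11 ± 0.16, adjusted p = 0.000804), and Rplp2 from 41.1 and 31.5 to 84.7 and 64.9 FPKM (1.02 ± 0.17, adjusted p = 0.00159). In each of the 3 genes the groups did not overlap.

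Among core large-subunit genes, Rpl3, which lines the peptidyl transferase centre, rose from 117 and 102 to 288 and 268 FPKM in STAT3-KO cells (1.34 ± 0.14, adjusted p = 0.00011). Rpl4 rose from 2153 and 2289.6 to 4496 and 4467 FPKM (1.01 ± 0.10, adjusted p = 8.03e-05). Rpl22, known for its role in lymphocyte development, rose from 27.5 and 20.5 to 57.2 and 48.0 FPKM (1.11 ± 0.21, adjusted p = 0.00305). Rises were also called for Rpl10 (1.06 ± 0.17), Rpl36a (1.23 ± 0.24) and Rpl7 (0.89 ± 0.21), with adjusted p of 0.00134, 0.00346 and 0.00885. Rpl39, at the end of the exit tunnel, measured 3.52 and 3.48 FPKM in STAT3-KO control and 5.13 and 2.55 with IL-33 and was not called (0.05 ± 0.36, adjusted p = 0.916).

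Among core small-subunit genes, Rps12 rose from 17.9 and 12.9 to 57.0 and 39.8 FPKM in STAT3-KO cells (1.59 ± 0.22, adjusted p = 0.000518). Rps6 rose from 1278 and 1088 to 2263 and 1628 FPKM (0.70 ± 0.15, adjusted p = 0.00587), Rps3a1 from 1978 and 1746 to 3341 and 2552 FPKM (0.65 ± 0.15, adjusted p = 0.00813), and the X-linked Rps4x from 113 and 88.5 to 228 and 154 FPKM (0.90 ± 0.20, adjusted p = 0.00648). Rps19, the gene most often mutated in Diamond-Blackfan anaemia, measured 31.2 and 26.3 FPKM in control and 41.1 and 29.7 with IL-33 and was not called (0.28 ± 0.21, adjusted p = 0.289). The 19 tested members without a call in STAT3-KO cells had a median mean level of 20.5 FPKM against 57.8 FPKM for the 61 that rose, and a median difference of 0.05. They included the 5 genes that fell in WT and Rpl38, Rps15, Rps29 and Rpl37a, which were chosen after their values were seen. Without library 2 of STAT3-KO control, 40 members were called higher. Of 17 alternative settings, 6 ended the call of Rps19bp1, 3 that of Rpl22l1 and 2 that of each of Rpl7 and Rps3a1. The summed mast cell and basophil markers moved with this contrast as well, from 111 and 140.4 to 7.77 and 7.49 FPKM, and their part in the result was not tested.

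The third comparison sets STAT3-KO against WT in control, without IL-33. None of the 80 members was called by limma, with 0 higher and 0 lower, against 0.253% and 0.21% of all tested genes, and 0 members had an unadjusted p under 0.05. The members' median was 0.03 and that of all genes 0.02, and single members ranged from -0.42 to 0.35. Rps2 held the lower end, at 1029 and 743 FPKM in WT and 593 and 718 in STAT3-KO control (-0.42 ± 0.22, adjusted p = 0.643, 95% confidence interval from -0.93 to 0.08). Rps19bp1, a nucleolar protein that binds Rps19, held the upper end, at 26.6 and 20.5 FPKM in WT and 32.7 and 27.8 in STAT3-KO control (0.35 ± 0.16, adjusted p = 0.543). For Rpl4 the interval of the difference ran from -0.24 to 0.21, and for Rplp0 from -0.29 to 0.18. So few genes of the whole table passed here that the absence of calls among the members does not show that their levels were alike.

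The fourth comparison sets the genotypes against each other after IL-33. In STAT3-KO cells 48 of the 80 members were higher than in WT cells and 0 lower (also 0 at an unadjusted limma p under 0.05), against 16.3% and 16.4% of all tested genes. The median member differed by 0.64 and the median gene by 0.01. The calls covered 25 of 42 tested core large-subunit genes, 16 of 30 core small-subunit genes, all 3 stalk genes and 4 of 5 tested paralogues and other genes. This comparison shares the STAT3-KO libraries with IL-33 with the second one.

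Rps2 again differed most, at 810.1 and 712 FPKM in WT and 2898 and 1861 in STAT3-KO cells with IL-33 (1.61 ± 0.22, adjusted p = 0.00109). Rpl22 measured 23.8 and 15.9 against 57.2 and 48.0 FPKM (1.39 ± 0.21, adjusted p = 0.00178), and Rps12 22.7 and 17.9 against 57.0 and 39.8 FPKM (1.20 ± 0.22, adjusted p = 0.00367). In all 3 genes the libraries of the genotypes lay apart. Rpl3 was higher by 1.16 ± 0.14 (adjusted p = 0.000502), Rpl4 by 1.01 ± 0.10 (adjusted p = 0.000192), Rplp0 by 0.85 ± 0.10 (adjusted p = 0.000616) and Rplp1 by 0.91 ± 0.16 (adjusted p = 0.00367).

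Rps6 measured 1331 and 1219 FPKM in WT and 2263 and 1628 in STAT3-KO cells with IL-33 (0.59 ± 0.15, adjusted p = 0.0198), and Rps4x 117 and 90.7 against 228 and 154 FPKM (0.86 ± 0.20, adjusted p = 0.0126), with the genotypes apart in both. Rpl10 was called at 0.53 ± 0.17 (adjusted p = 0.0457). Rpl7 (0.60 ± 0.21, adjusted p = 0.0618), Rpl36a (0.57 ± 0.24, adjusted p = 0.106), Rpl39 (0.18 ± 0.36, adjusted p = 0.741), Rpl13a (0.01 ± 0.24, adjusted p = 0.976) and Rps19 (0.33 ± 0.21, adjusted p = 0.262) were not called. Rps19bp1 was called at 0.48 ± 0.16 (adjusted p = 0.0454), with 30.6 and 30.1 FPKM in WT and 46.7 and 39.3 in STAT3-KO cells. Of 17 alternative settings, 13 ended the call of Rpl10, 10 that of Rps19bp1, 8 that of Rps27, 6 that of Rps6, 5 that of Rpl22l1, 4 that of each of Rps4x, Rps26 and Rps27rt, 2 that of each of Rpl8, Rpl7l1 and Rplp2 and 1 that of Rps3a1.

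Rps27 and Rps27rt, which had fallen with IL-33 in WT, were higher in STAT3-KO cells with IL-33 than in WT cells with it, by 0.63 ± 0.20 (adjusted p = 0.0444) and 0.66 ± 0.18 (adjusted p = 0.0229). Rps27l, high in both genotypes, was not called (0.20 ± 0.17, adjusted p = 0.421, 95% confidence interval from -0.19 to 0.58). Rps25 differed by 0.26 ± 0.18 (adjusted p = 0.303) and also had no call. Without library 2 of WT with IL-33, or without library 1 of STAT3-KO with IL-33, 17 members were called higher, and 21 were called with these 2 groups fitted alone. The mast cell and basophil markers given above moved with this contrast (127 to 155 FPKM against 7.49 to 7.77), as did the summed ILC2 markers (10564 and 11343 FPKM against 4201 and 3841) and the mitochondrial share (3.33% and 2.31% against 6.12% and 6.26%), and their part in the result was not tested.

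The last comparison asks whether the IL-33 response itself differed between genotypes. The difference (response in STAT3-KO minus response in WT) was called above 0 for 16 of the 80 members and below 0 for 0, against 6.72% and 8.43% of all tested genes. Its median was 0.61 over the members and -0.02 over all genes. The 16 were Rps2, Rps3a1, Rps12 and Rps20 of the small subunit, Rpl3, Rpl4, Rpl6, Rpl7a, Rpl8, Rpl18, Rpl22, Rpl23 and Rpl27a of the large subunit, the stalk genes Rplp0 and Rplp1, and the Rpl7 paralogue Rpl7l1.

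The largest of these differences were those of Rps2 (2.03 ± 0.31, adjusted p = 0.00524), Rpl22 (1.47 ± 0.30, adjusted p = 0.0152) and Rps12 (1.17 ± 0.30, adjusted p = 0.0355). In Rps2 and Rpl22 the response in WT was -0.20 ± 0.22 and -0.35 ± 0.21, neither of them called, while both rose in STAT3-KO cells. Rpl8 differed otherwise: it fell in WT and measured 36.1 and 36.1 FPKM in STAT3-KO control and 46.2 and 41.8 with IL-33 (0.28 ± 0.16, adjusted p = 0.187), with a difference of responses of 0.92 ± 0.23 (adjusted p = 0.0327). Among the others of the 16, chosen here after their values were seen, Rpl6 measured 463 and 408 FPKM in WT control, 456 and 403 in STAT3-KO control, 491 and 431 in WT with IL-33 and 925 and 769 in STAT3-KO with IL-33, with only the last group apart (0.89 ± 0.18, adjusted p = 0.0138). Rpl18 measured 37.6 and 37.6 FPKM in WT control and 33.4 and 27.9 with IL-33, and 41.6 and 30.4 and then 78.3 and 53.2 in STAT3-KO cells (1.14 ± 0.29, adjusted p = 0.0343). Rpl23, Rpl7a, Rpl27a and Rps20 differed by 1.09 ± 0.21, 0.92 ± 0.21, 0.90 ± 0.23 and 1.00 ± 0.25. Rplp0 rose in both genotypes and by more in STAT3-KO cells (0.91 ± 0.15, adjusted p = 0.00656). Rps27 (0.54 ± 0.29, adjusted p = 0.235), Rps7 (1.02 ± 0.36, adjusted p = 0.0935) and Rps26 (0.71 ± 0.26, adjusted p = 0.104) did not pass. Of 16 alternative settings, 13 ended the call of Rpl7l1, 9 that of each of Rplp1, Rpl8 and Rps3a1, 7 that of Rps12, 4 that of Rpl22, 1 that of Rplp0, and 0 ended those of Rps2, Rpl3 and Rpl4. The count was 31 without library 2 of STAT3-KO with IL-33, 6 without its library 1, 5 without library 2 of STAT3-KO control, 9 and 7 without library 1 and 2 of WT with IL-33, and 8 and 9 without library 1 and 2 of WT control.

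**Figure D5:**
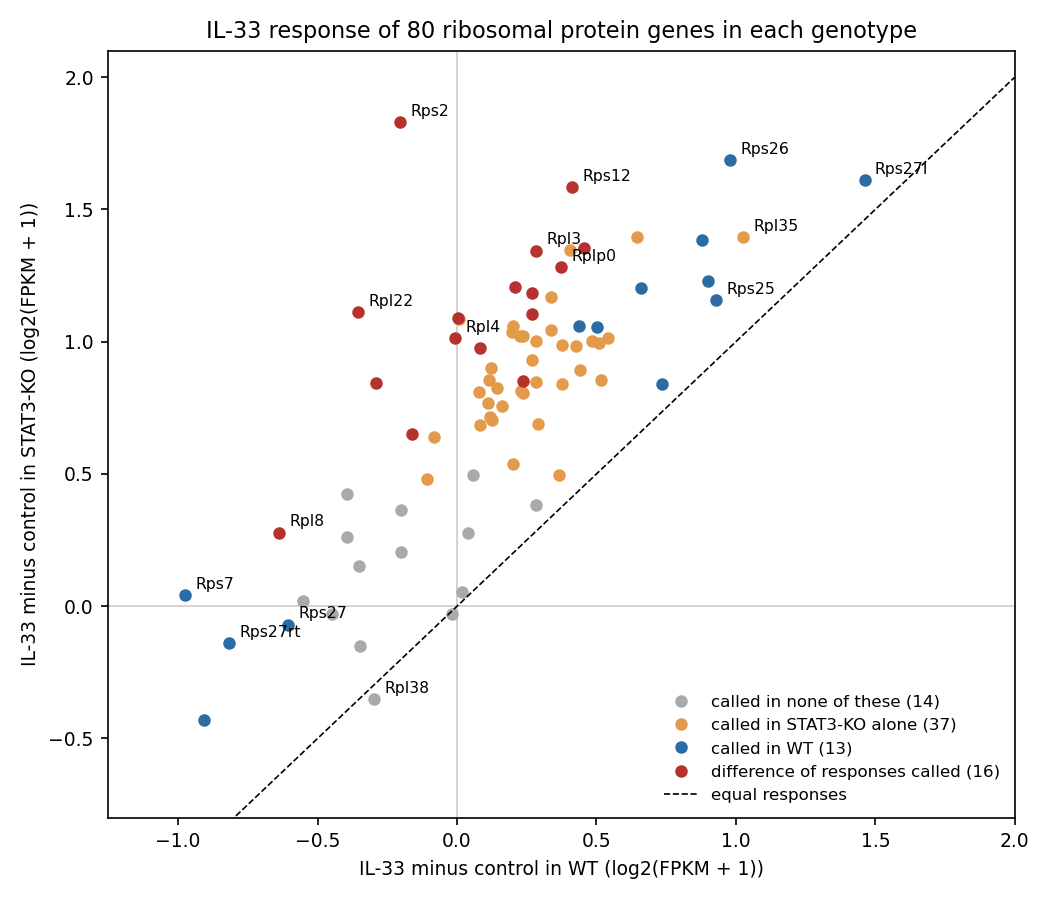
Each of the 80 tested members by its IL-33 response in WT (horizontal) and in STAT3-KO (vertical), as differences of log2(FPKM + 1), with colours for the calls and a dashed line where the responses are equal. Rps2, at 1.83 in STAT3-KO and -0.20 in WT, lies farthest above the line, Rps27l lies near it, and 78 of the 80 points are above it.

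Paralogues were set beside their core genes. Rpl22l1, the paralogue of Rpl22, measured 2.70 and 3.93 FPKM in WT control, 4.66 and 3.26 in STAT3-KO control, 4.07 and 3.40 in WT with IL-33 and 9.10 and 6.51 in STAT3-KO with IL-33, and rose with IL-33 in STAT3-KO cells (0.83 ± 0.24, adjusted p = 0.0198). Its ratio to Rpl22 was between 0.0988 and 0.214 in every library, with STAT3-KO with IL-33 at 0.159 and 0.135. Rpl7l1, a factor of large-subunit assembly, was higher than Rpl7 in every library, at 134 and 124 FPKM in WT control, 123 and 121 in STAT3-KO control, 135 and 172 in WT with IL-33 and 218 and 225 in STAT3-KO with IL-33. It rose in STAT3-KO cells (0.85 ± 0.12, adjusted p = 0.00067) and had no call in WT (0.24 ± 0.12, adjusted p = 0.157). Rpl36al, the retrocopy of Rpl36a, measured 0.2799 to 1.59 FPKM and at most 0.078 of Rpl36a. The genes of a pair differ in how much sequence other genes share, with 53.3% of the windows in Rpl7 and 9.19% in Rpl7l1. How such reads were counted is not given, so which gene of a pair is higher is a description only.

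Level and response were weakly related among the 80 members. Between mean log2 level and the IL-33 difference in STAT3-KO cells, Spearman's rho was 0.33 and Pearson's r 0.40. Transcript length gave a rho of 0.17 with that difference and the share of windows found in other genes 0.11. All points come from the same 8 libraries, and low members are compressed by the pseudocount of 1, so that these are descriptions only. Rows of the table named as ribosomal protein pseudogenes, 141 in all, summed to between 676 and 786 FPKM in the other 6 libraries and to 1496 and 1025 FPKM in STAT3-KO with IL-33. As with the members, STAT3-KO with IL-33 lay above the other 6 libraries, whose order was not the same as in the members.

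Core ribosomal proteins that the name rule misses can be set beside the members. Rpsa, the laminin-receptor protein of the small subunit, measured 181 and 165 FPKM in WT control, 191 and 167 in STAT3-KO control, 179 and 138 in WT with IL-33 and 343 and 274 in STAT3-KO with IL-33, and its responses differed by 0.91 ± 0.22 (adjusted p = 0.0282). Rack1, a signalling scaffold on the small subunit, rose with IL-33 in WT (0.52 ± 0.13, adjusted p = 0.0157) and in STAT3-KO cells (1.17 ± 0.13, adjusted p = 0.000202). Fau, a ubiquitin-like fusion, rose in STAT3-KO cells (0.64 ± 0.20, adjusted p = 0.0276).

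Other genes of translation were counted by list, each beside the share of all tested genes called, which was 14.5% higher and 21.6% lower in WT, 20.4% and 30.6% in STAT3-KO cells, 16.3% and 16.4% between the genotypes with IL-33, and 6.72% above 0 for the difference of responses. Of 21 genes for elongation factors and other TOP mRNAs, 8 rose and 1 fell with IL-33 in WT (38.1% and 4.76%), 17 rose and 0 fell in STAT3-KO cells (81% and 0%), 15 were higher and 1 lower in STAT3-KO than in WT with IL-33 (71.4% and 4.76%), and 12 had a difference of responses above 0. Their median response was 0.29 in WT and 0.88 in STAT3-KO cells. Eef2, the factor that moves the ribosome along the mRNA, was higher in STAT3-KO than in WT with IL-33 at 685 and 702 against 375 and 348 FPKM (0.94 ± 0.09, adjusted p = 0.000163). Npm1, a nucleolar chaperone of ribosome assembly, rose in STAT3-KO cells from 125 and 116 to 393 and 323 FPKM (1.56 ± 0.15, adjusted p = 7.27e-05). Eif3f, a subunit of initiation factor eIF3 on this list, was the one that fell in WT, from 64.9 and 49.3 to 25.8 and 24.7 FPKM (-1.13 ± 0.20, adjusted p = 0.00314). Of 52 listed genes of ribosome biogenesis, 16 rose and 2 fell in WT (30.8% and 3.85%), and 34 rose and 2 fell in STAT3-KO cells (65.4% and 3.85%), with medians of 0.25 and 0.71, among them Nop16, a nucleolar assembly factor, which went from 12.1 and 14.7 to 72.9 and 63.2 FPKM (2.27 ± 0.13, adjusted p = 6.55e-06).

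Of 29 initiation factors, 9 rose and 3 fell in WT (31% and 10.3%) and 14 rose and 2 fell in STAT3-KO cells (48.3% and 6.9%), with medians of 0.26 and 0.38. Eif2s2, a subunit of the factor that brings the initiator tRNA, rose in both, by 1.55 ± 0.12 (adjusted p = 5e-05) and 1.31 ± 0.12 (adjusted p = 7.17e-05). Of 21 genes of RNA polymerase I and its factors, 3 rose and 4 fell in WT (14.3% and 19%), shares near those of all tested genes, and 7 rose and 5 fell in STAT3-KO cells (33.3% and 23.8%), with medians of -0.15 and -0.02. Polr1a, the largest subunit, fell in STAT3-KO cells from 10.95 and 9.57 to 3.89 and 3.22 FPKM (-1.31 ± 0.17, adjusted p = 0.000411). It also fell in WT (-0.87 ± 0.17, adjusted p = 0.00501). Polr1c, another subunit, rose in STAT3-KO cells from 9.53 and 8.62 to 29.7 and 24.6 FPKM (1.48 ± 0.17, adjusted p = 0.000195). Of 26 tested genes of mTORC1 and its regulators, 4 rose and 6 fell in WT (15.4% and 23.1%), again near the shares of all tested genes, and 8 rose and 8 fell in STAT3-KO cells (30.8% and 30.8%), with medians of -0.21 and -0.23. Sesn1, an inhibitor of mTORC1 signalling, rose in STAT3-KO cells from 90.8 and 92.8 to 262 and 316 FPKM (1.64 ± 0.11, adjusted p = 1.35e-05). Of 12 genes of the MYC network, 4 rose and 2 fell in WT (33.3% and 16.7%) and 3 rose and 5 fell in STAT3-KO cells (25% and 41.7%), with medians of -0.21 and -0.18. Myc itself rose in STAT3-KO cells from 89.6 and 83.2 to 218 and 225 FPKM (1.35 ± 0.10, adjusted p = 2.05e-05), with a difference of responses of 0.63 ± 0.14 (adjusted p = 0.0197). In WT, Myc measured 94.6 and 87.0 FPKM in control and 143 and 157 with IL-33. Larger differences of responses in this list were those of Mxd1, below 0 (-3.46 ± 0.21, adjusted p = 8.23e-05), and Max, above 0 (2.30 ± 0.20, adjusted p = 0.000509). Of 9 tested snoRNA host genes, 0 were called in WT and 1, Snhg4, rose in STAT3-KO cells (0.99 ± 0.21, adjusted p = 0.00542). Between the genotypes in control, where 0.253% and 0.21% of all tested genes were called, 0 genes of these lists were, which is no result about the lists.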

How the data were processed

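RNA levels of 8 libraries, 2 in each of 4 groups, were read from the deposited table of FPKM values. Per the submitters' processing notes these came from Bowtie2 and RSEM with GRCm38, whose versions, annotation, filters and strand setting are not given in the sources used here. Depth was recovered from the steps of the values times the merged exon length of GENCODE M21: 93.5% to 94.6% of a library's values up to 100 reads were whole within a tolerance of 0.02. Since FPKM are not counts, tests used log2(FPKM + 1), where 1 is the pseudocount, on 11877 genes with at least 1 FPKM in at least 2 libraries. In limma 3.58.1 (R 4.3.3), 1 mean per group was fitted over all 8 libraries with a prior variance that follows expression (residual degrees of freedom 4, prior 4.46 in the median gene). In each of 5 two-sided comparisons, p values of all tested genes were adjusted after Benjamini and Hochberg, with calls at 0.05. The procedure was tested on simulated data. Tables and figures used matplotlib 3.10.9, pandas 2.3.3 and numpy 2.4.6 in Python 3.11.15.

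The members, the other gene lists and the rules were chosen with earlier results of these data known. Described with values were 20 members fixed by name, the 3 largest rises and the 3 largest falls per comparison among called members with separate groups and 5 FPKM or more in the higher group's mean, and the 3 members of highest and of lowest mean. Of the other lists, up to 4 called genes of smallest p per comparison were eligible, and those printed are a part of these. Any other member named was chosen after its values were seen. Replicate numbers were not used as pairs, since the labels tie no number to an animal or batch: deviations of same-numbered libraries correlated between groups at -0.06 to 0.04 over all genes, and over the members at -0.14 to 0.24, above 0.1 in 4 of 6 pairs of groups. Alternatives were other pseudocounts, filters and scalings, removal of a trend with length, groups fitted alone, limma without the trend, a replicate block, and leaving out each library. No protein sequences were used here. Some items are not reported here.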

Additional observations from a re-analysis of the deposited data

Results flagged for a closer look

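For 10 members that were described with values, the IL-33 response differed between genotypes by the test of the difference itself (response in STAT3-KO minus response in WT, on the log2(FPKM + 1) scale, n = 2 libraries in each of 4 groups, limma with adjustment over all tested genes). The difference was 2.03 for Rps2, 1.47 for Rpl22, 1.17 for Rps12, 1.06 for Rpl3, 1.02 for Rpl4, 0.92 for Rpl8, 0.91 for Rplp0, 0.84 for Rplp1, 0.81 for Rps3a1 and 0.61 for Rpl7l1. Under the 16 alternatives run for this comparison, Rps2 (1.71 to 2.35), Rpl3 (0.88 to 1.24) and Rpl4 (0.86 to 1.13) passed the test in each, with a highest adjusted p of 0.0352, 0.0408 and 0.0403. Rplp0 missed it in 1, without the filter on low values (adjusted p = 0.0586). Rpl22 missed it in 4, Rps12 in 7, Rpl8, Rplp1 and Rps3a1 in 9 each, and Rpl7l1 in 13.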

How the results depend on the processing

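Among values of named members recomputed under other settings, 2076 kept their side of the threshold, 158 lost the call, 24 gained one and 0 called values changed sign. Values without a call under either setting count among the 2076 whether or not their sign changed. Counts of called members moved more. The 10 rises in WT became 4 without the filter on low values, 16 with a filter at 5 FPKM, 20 with scaling by the median of ratios, 16 with the length trend removed, 6 with limma without the trend and 18 with a replicate block, and 4 to 17 when 1 library was left out. The 5 falls in WT became 2 without the filter and 0 to 6 when 1 library was left out. The 61 rises in STAT3-KO cells ranged from 40 to 63 when 1 library was left out. The 48 members higher in STAT3-KO than in WT with IL-33 became 21 without the filter and 21 with these groups fitted alone, and 17 to 58 when 1 library was left out. The 16 differences of responses became 4 without the filter, 7 with limma without the trend and 5 to 31 when 1 library was left out. The count between genotypes in control was 0 in both directions under every setting run. The unfiltered fit tested more genes, and the other causes were not tested. The replicate block changed no other count by more than 1.5 times. Same-numbered libraries did not deviate together over all genes (-0.06 to 0.04), but over the members the correlations reached 0.24. With equal library sums (TPM) the counts were 10 and 5 in WT, 57 in STAT3-KO cells, 43 between genotypes with IL-33 and 14 for the difference. A left-out library leaves 1 in its group, assumed to vary like the others.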
